A study of Mus musculus with 2 samples.

Results

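The Ms4a genes of myeloid cells were examined in mouse neutrophils cultured with tumor exosomes. The 9 genes are Ms4a3, Ms4a4a, Ms4a4c, Ms4a4d, Ms4a6b, Ms4a6c, Ms4a6d, Ms4a7 and Ms4a8a. They were chosen by name, as the rows of both expression tables that carry these symbols, and all 9 were found among 35522 features. A further 9 rows named Ms4a are used below for comparison. The neutrophils came from mouse bone marrow, where they were gated as CD11b-positive cells with high Ly-6G and low or absent Ly-6C. Both cultures were kept in complete RPMI-1640 medium with GM-CSF, a myeloid growth factor, at 10 ng/ml. The PBS-treated culture received PBS for 3 days, and the exosome-treated culture (labelled ELV) received 20 μg/ml of tumor exosomes for 3 days. These exosomes had been spun out of medium conditioned by spheres of colon cancer stem cells (SDCSCs), all grown from CT26, a single murine line, and no library with vesicles of another source was compared. Genotype, strain, sex and age of the mice, and whether marrow of several mice was pooled, are not given in the labels. The authors' published methods name Balb/C mice for the isolation of immune cells and state a minimum, not complete, purity for sorted cells. Each treatment holds 1 library, so no value below can be set against a spread between replicates, and no test was made.

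MS4A proteins (membrane-spanning 4-domains, subfamily A) are small proteins that pass through the membrane several times. Several of them sit beside immune receptors and tune their signals, and the best known is CD20 of B cells, the product of Ms4a1. In the myeloid lineage the family is divided by stage. Ms4a3 is a gene of granulocyte-monocyte progenitors, whereas Ms4a7, Ms4a4a, Ms4a6c and Ms4a6d are best known from monocytes and macrophages.

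Levels are given in RPKM, in which the reads of a gene are divided by exon length and by library depth, so that levels can be compared between genes per length. Depth, estimated from the smallest values, came to 65.96 M reads in the PBS library and 79.13 M in the exosome library. Intervals are 95% exact intervals from reads estimated with these depths and the longest annotated transcript, and they cover counting error only. Ratios of exosome over PBS RPKM were read for genes that reached 0.25 RPKM in each library, called kept below. Up means that this ratio was 2 or more, and down that it was 0.5 or less. Of the 9 members 7 were kept, and of these 4 were up, 0 were down and 3 stayed within 2-fold. Among all 9698 features kept, 31.5% were up and 5.62% were down, a split that became 16.8% and 13.2% once the median log2 ratio of these features was subtracted and 8.52% and 27.0% once that of features from 1 to 5 RPKM was subtracted. The median log2 ratio was 1.31 for the 7 members and 0.53 for all features kept. In bulk samples such as these, fewer cells of a type and less RNA per cell cannot be told apart.

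Ms4a7, which encodes a protein of mature macrophages, showed the largest ratio of the 9 members. Its level was 1.02 RPKM in PBS-treated neutrophils and 16.8 RPKM in exosome-treated neutrophils. The PBS value stood below those of Ms4a6b, Ms4a6d and Ms4a6c, and the exosome value stood above all of them. The ratio was 16.5 with a counting interval of 14.4 to 18.8, and the log2 ratio was 4.04. Of all features kept, 33 had a larger ratio, and 0.784% were up at least 10-fold. The features nearest to Ms4a7 by distance over the log2 RPKM of the 2 libraries were Tuba8, Gm13139 and Cbr3, with ratios of 17.5, 13.3 and 19.7. With only 2 libraries such a likeness rests on a single pair of values per gene.

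Ms4a6d, a gene of monocytes and macrophages, was listed at 1.58 RPKM in PBS and 7.40 RPKM with exosomes. Its ratio was 4.68, with an interval of 3.92 to 5.61. Ms4a4a, whose human counterpart acts beside the fungal receptor dectin-1 in macrophages, was listed at 0.58 RPKM in PBS and 2.66 RPKM with exosomes. Its ratio was 4.59, and its interval of 3.13 to 6.91 was, relative to the ratio, the widest of the members called up, since the PBS value stands for about 32 reads. The intervals of Ms4a6d and Ms4a4a overlapped, so their order was not settled at this depth. These genes and Ms4a7 made 3 of 7 members up at least 4-fold, against 8.52% of all features kept.

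Ms4a6c, a further monocyte gene, was listed at 1.27 RPKM in PBS and 3.14 RPKM with exosomes. The ratio of 2.47 had an interval of 2.06 to 2.99, whose lower end lies just above the 2-fold limit. The call rested on the scaling of the libraries, since subtraction of the median log2 ratio of all features kept left a log2 ratio of 0.78.

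The members that stayed within 2-fold were Ms4a4c, Ms4a6b and Ms4a3. Ms4a4c was listed at 0.91 RPKM in PBS and 1.43 RPKM with exosomes, a ratio of 1.57. Its interval of 1.24 to 2.02 includes the 2-fold limit. Ms4a6b, which is also transcribed in T cells, was the highest of the 9 members in PBS, at 1.77 RPKM, and stood at 2.60 RPKM with exosomes. Its ratio was 1.47, with an interval of 1.32 to 1.64. Ms4a3, the progenitor gene, was listed at 0.54 and 0.60 RPKM. Its ratio of 1.11 had an interval of 0.759 to 1.59, and a difference was not detectable at this depth.

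The remaining members were at or near 0 in both libraries and were not kept. Ms4a4d was listed at 0.02 RPKM in each, which stands for about 2 reads and gives no usable ratio. Ms4a8a, described in tumor-associated macrophages, was listed at 0 RPKM in both libraries. A count of 0 allows up to 3 reads, which for its length are 0.0387 RPKM in PBS and 0.0322 RPKM with exosomes.

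**Figure D1:**
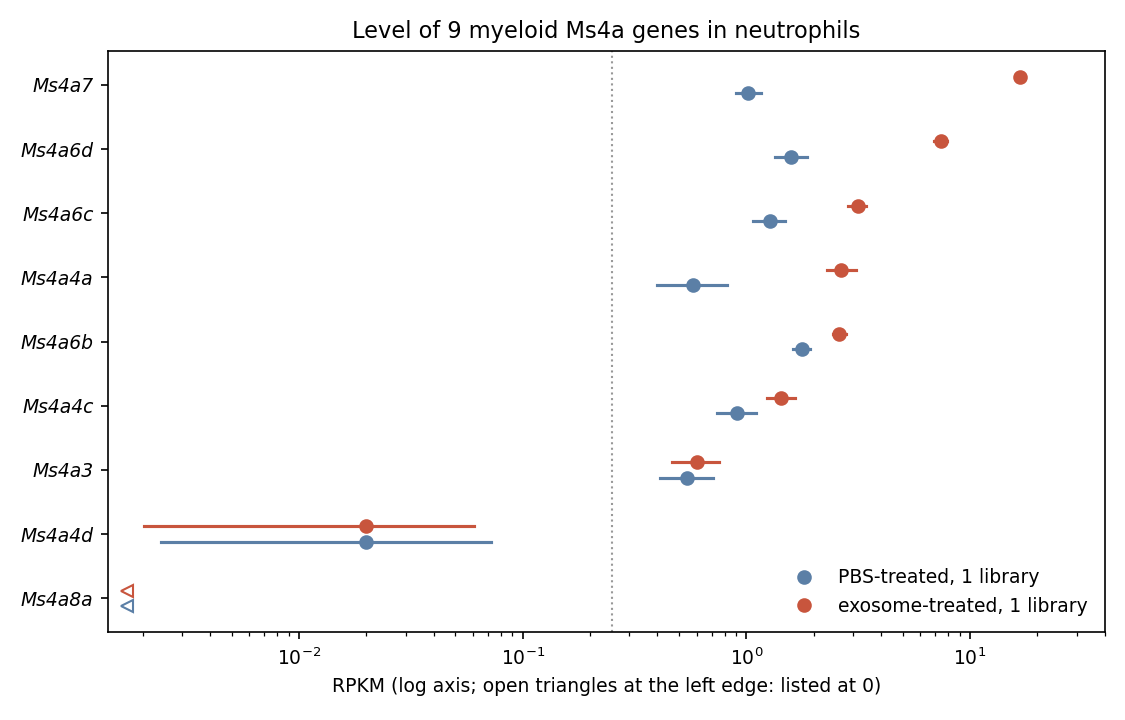
RPKM of the 9 members on a log axis, 1 point per library, with lines for the 95% counting interval and a dotted line at the limit of 0.25 RPKM. The points of Ms4a7 lie farthest apart, at 1.02 and 16.8 RPKM, those of Ms4a3 lie almost together at 0.54 and 0.60, and Ms4a8a is listed at 0 in both.

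The order of the members differed between the libraries. In PBS the levels of Ms4a6b, Ms4a6d, Ms4a6c, Ms4a7, Ms4a4c, Ms4a4a and Ms4a3 ran from 1.77 down to 0.54 RPKM, and the counting intervals of all neighbours in this order overlapped. With exosomes the levels ran from 16.8 down to 0.60 RPKM. The intervals of Ms4a7 (16.3 to 17.3 RPKM) and Ms4a6d (6.90 to 7.92 RPKM) overlapped neither each other nor those of the group behind them. In that group Ms4a6c, Ms4a4a and Ms4a6b stood at 3.14, 2.66 and 2.60 RPKM, with overlapping intervals between neighbours. Ms4a4c and Ms4a3 followed, apart from each other and from the group.

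The ratios of these genes have to be read against a shift that ran through the whole table and differed with the level of expression. Of 2950 features with a mean RPKM from 1 to 5, 50.2% were up, and the median log2 ratio was 1. Ms4a4a, Ms4a4c, Ms4a6b, Ms4a6c and Ms4a6d lie in this range, and 3 of these 5 were up, a share close to that of the range as a whole. At least 4-fold, 2 of these 5 members and 17.5% of the range were up. Relative to the median of the range, the log2 ratios were 1.23 for Ms4a6d, 1.20 for Ms4a4a and 0.31 for Ms4a6c, and turned to -0.35 for Ms4a4c and -0.45 for Ms4a6b. Ms4a7 belongs to the range from 5 to 10 RPKM, whose median log2 ratio was 0.67, and 99.5% of the 1556 features there had a smaller ratio. The ranges are set by the mean of both libraries, so the ratio of a gene helps to place it. Ms4a7, at 1.02 and 16.8 RPKM, was within its range in neither library. For Ms4a3, in the range from 0.25 to 1 RPKM, the difference from the median was -0.33. Among genes of like mean level Ms4a6d and Ms4a4a thus stood above 87.9% and 87.2% of features. Ms4a6c stood above 61.7%, and Ms4a4c, Ms4a6b and Ms4a3 stood below the middle.

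**Figure D2:**
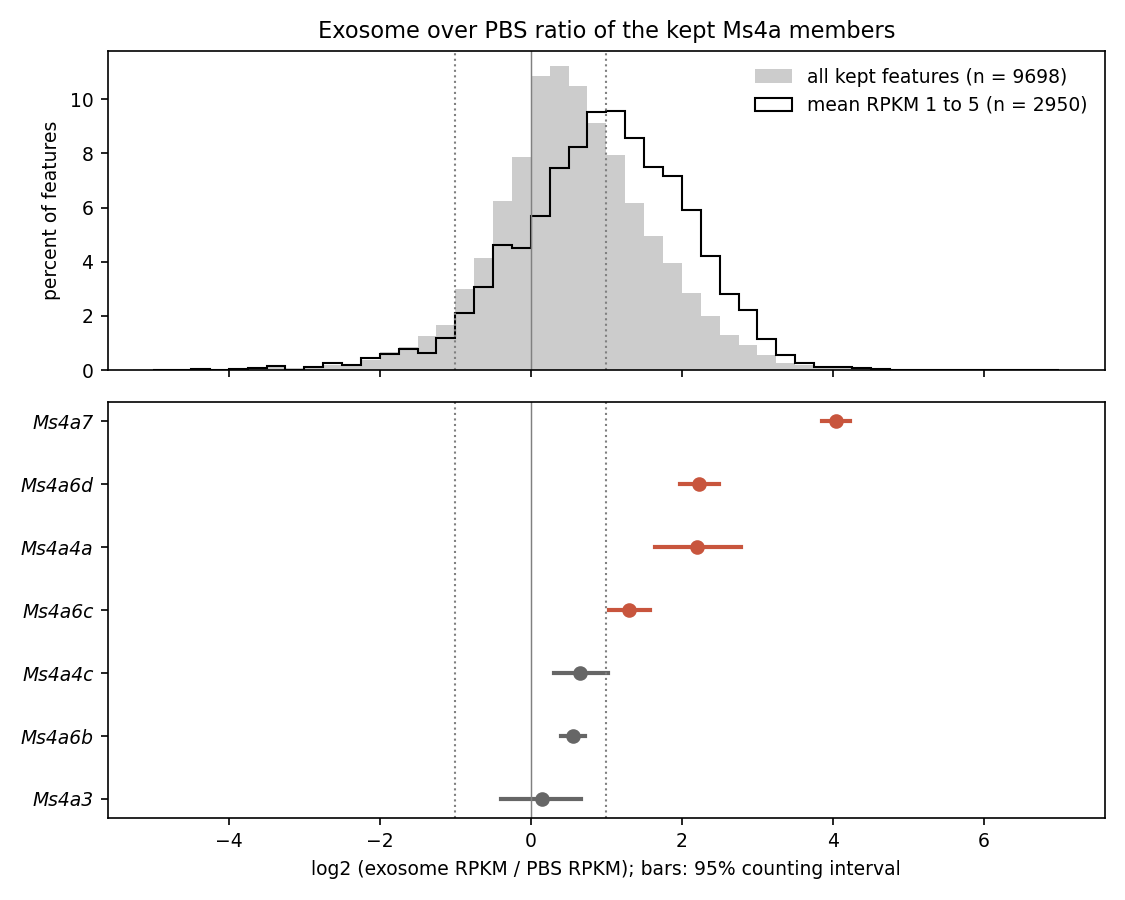
Upper panel: share of features (percent) by log2 of exosome over PBS RPKM, for all 9698 features kept (grey) and for 2950 of them with a mean RPKM of 1 to 5 (line). Lower panel: log2 ratio of the 7 members kept with 95% counting intervals, where red marks the 4 called up, dotted lines mark 2-fold, and Ms4a7 lies at 4.04, beyond most of both distributions.

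The added signal was uneven among the members. Their summed level was 7.69 RPKM in PBS and 34.6 RPKM with exosomes, a ratio of 4.50, and without Ms4a7 the sums were 6.67 and 17.9 RPKM, a ratio of 2.68. Ms4a7 held 13.3% of the summed level in PBS and 48.5% with exosomes. Ms4a6d held similar shares of 20.5% and 21.4%, while Ms4a6b held 23.0% and 7.51%. Of the RPKM added between the libraries, Ms4a7 accounted for 58.5% and Ms4a6d for 21.6%.

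Of the other 9 Ms4a rows 3 were higher with exosomes, 3 were lower and 3 were listed at 0 in both libraries, and only Ms4a1 was kept. For comparison, 10254 of all 35522 features were higher, 5057 were lower and 19897 were listed at 0 in both libraries. Ms4a1, the gene of CD20, was the highest of all 18 Ms4a rows in PBS, at 15.6 RPKM, and was listed at 10.0 RPKM with exosomes. Its ratio of 0.641 had an interval of 0.608 to 0.676, which lies outside that of each kept member. The gene stayed within 2-fold as deposited and was down once the median log2 ratio of all features kept was subtracted. Both of its levels lie in the range from 10 to 50 RPKM, whose median log2 ratio of 0.31 is smaller. Relative to the median of that range Ms4a1 stayed within 2-fold. Ms4a1 held 66.3% of the summed RPKM of all Ms4a rows in PBS, and the share of the 9 members was 32.6% in PBS and 76.1% with exosomes. The 5 B cell markers read beside it (Cd79a, Cd79b, Pax5, Ebf1, Blk) were all detected and all lower with exosomes, with a summed level of 82.5 RPKM in PBS and 51.2 RPKM with exosomes and a median log2 ratio of -0.65, against -0.64 for Ms4a1. Their part in the level of Ms4a1 was not tested.

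Among the remaining rows, Ms4a14 was listed at 0.02 RPKM in PBS and 0.48 RPKM with exosomes, about 5 and 154 estimated reads. Its ratio of 24.0 had a wide interval of 10.8 to 80.2, and the gene was not kept. Ms4a4b, a gene of T cells, was listed at 0.06 and 0.15 RPKM. Ms4a2, which encodes the β chain of the high-affinity IgE receptor, was listed at 0.14 and 0.25 RPKM, while Fcer1a, the α chain of the same receptor, was listed at 0.12 and 0.10 RPKM. Ms4a5 and Ms4a15 were below 0.05 RPKM, and Ms4a10, Ms4a13 and Ms4a18 were listed at 0 in both libraries.

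**Figure D3:**
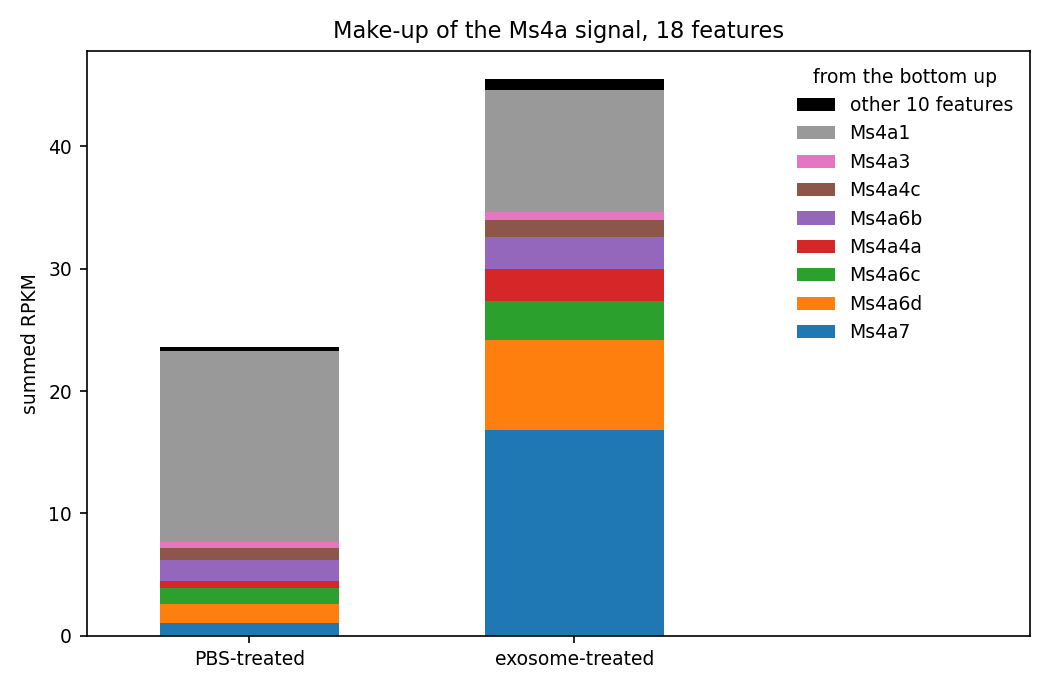
Summed RPKM of all 18 Ms4a rows in each library (bars from 0), split into the 7 kept members, Ms4a1 and the remaining rows. Ms4a1 fills 66.3% of the PBS bar, and Ms4a7 with Ms4a6d fill most of the gain in the exosome bar.

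All members lie in a single cluster on chromosome 19 of the mouse genome (build GRCm38, the same as mm10, which the submitters' processing notes name). Annotated Ms4a genes span chr19:10962293-11640851, a stretch of 679 kb. Ms4a7 lies on the minus strand at chr19:11321039-11336146, Ms4a6d on the minus strand at chr19:11586604-11604849, Ms4a4a on the plus strand at chr19:11375523-11392790 and Ms4a6c on the plus strand at chr19:11469366-11482192. Ms4a4c (chr19:11404770-11427246), Ms4a6b (chr19:11516512-11531256) and Ms4a4d (chr19:11536801-11558467) lie on the plus strand, and Ms4a3 (chr19:11629496-11640851) and Ms4a8a (chr19:11067471-11081102) on the minus strand. Kept genes were not spread evenly along the cluster. From Ms4a7 to Ms4a3, a stretch of 320 kb, 8 of 11 genes found in the files were kept, whereas of the 10 genes before Ms4a7 only Ms4a1 was kept and 5 were listed at 0 in both libraries. Genes called up were not one unbroken block. Ms4a7 and Ms4a4a are neighbours, but Ms4a4c and Ms4a4b separate Ms4a4a from Ms4a6c, and Gm8369, at 0.74 and 0.51 RPKM, Ms4a6b and Ms4a4d separate Ms4a6c from Ms4a6d. Ms4a14, the row with the steep ratio, is the next gene beyond the end of Ms4a7 on the same strand, 6.58 kb away.

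**Figure D4:**
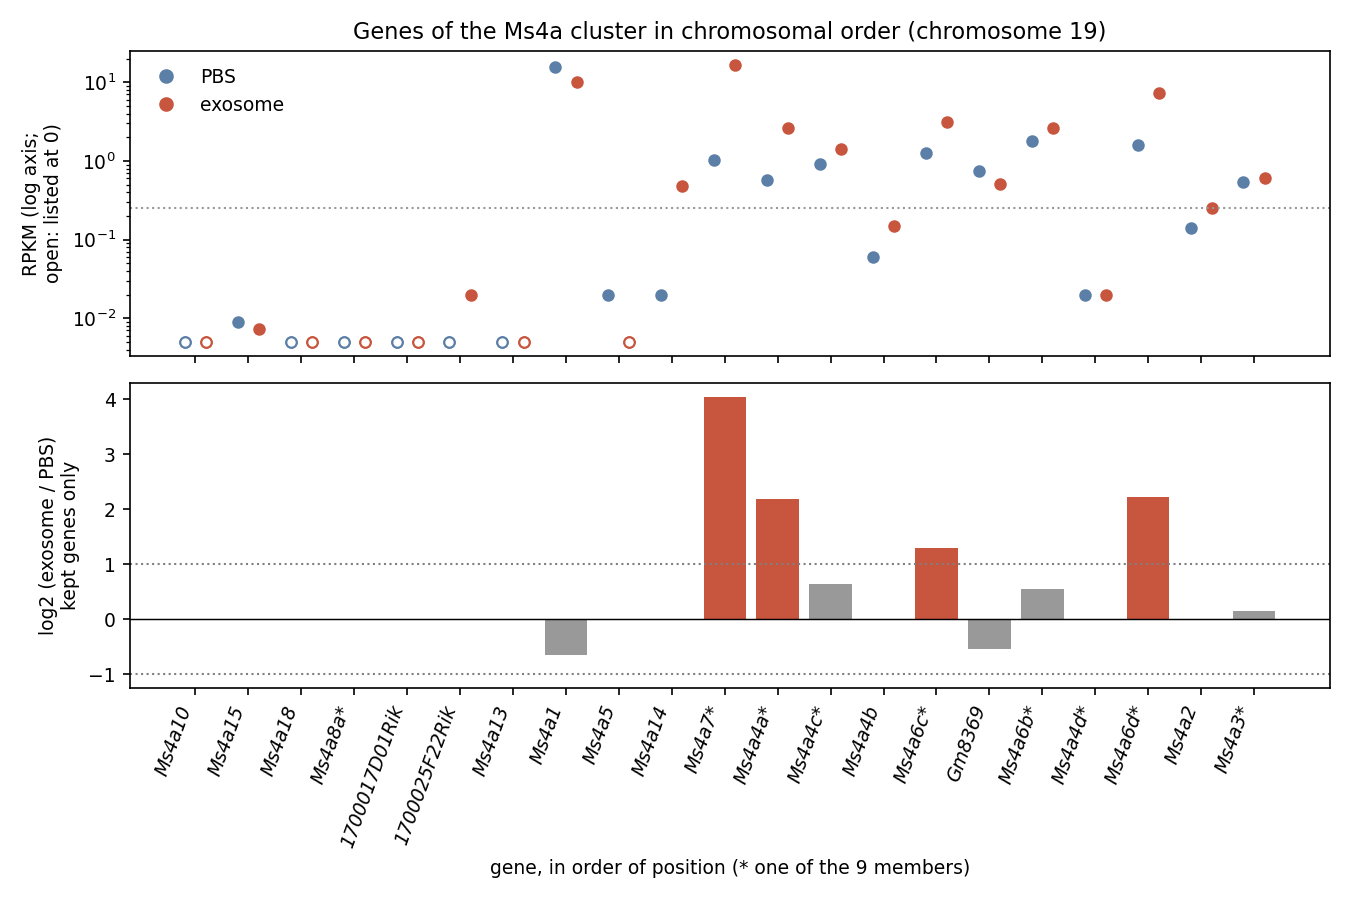
Genes of the Ms4a cluster in order of position (asterisks mark the 9 members). Upper panel: RPKM on a log axis in both libraries with a dotted line at 0.25. Lower panel: log2 of exosome over PBS RPKM of the genes kept, where red bars are the 4 called up, all from Ms4a7 onward, and Ms4a1 points downward at -0.64.

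Members of the cluster are related in sequence, so the reads of one could have been counted for another. Coding sequences of the 9 members matched over 43.5% to 85.8% of aligned bases in 36 pairs, with a median of 49.5%. The closest pair was Ms4a4c with Ms4a4d, followed by Ms4a6b with Ms4a6d at 80.2% and Ms4a6b with Ms4a6c at 74.6%. In the longest transcript, 11.3% of all 50-base stretches of Ms4a6c and 8.48% of those of Ms4a4c were also found in another gene, mostly Ms4a6b and Ms4a4b. The share was 3.28% for Ms4a6b, 2.92% for Ms4a6d, 0.871% for Ms4a7 (scattered over 244 genes), 0.546% for Ms4a4d and 0% for Ms4a3, Ms4a4a and Ms4a8a. How the authors assigned such reads is not given in the sources used here. Ms4a6b and Ms4a6d had overlapping counting intervals of their levels in PBS, at 1.77 and 1.58 RPKM, whereas the intervals of their ratios, 1.47 and 4.68, did not overlap. Ms4a4c was kept while Ms4a4d stood at 2 reads.

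Promoter windows of RefSeq (GRCm38.p6, from 250 bases before to 50 after the start) were found for 8 members, and the window of Ms4a6d was not among them. Stretches of 250 bases before the start are shown for the other members called up and for Ms4a4c, which stayed within 2-fold, so that they can be compared. They lie at chr19:11336147-11336396 (minus strand, the upstream of 2 starts listed for Ms4a7), chr19:11375238-11375487 (plus, Ms4a4a), chr19:11469118-11469367 (plus, Ms4a6c) and chr19:11407411-11407660 (plus, Ms4a4c). In the GENCODE annotation 2 bases of the Ms4a6c stretch fall in an exon. The Ms4a4c stretch lies outside exons but inside the gene, since the annotated gene starts upstream of the RefSeq start. Capitals mark every match, on either strand, to the motifs searched.
Ms4a7: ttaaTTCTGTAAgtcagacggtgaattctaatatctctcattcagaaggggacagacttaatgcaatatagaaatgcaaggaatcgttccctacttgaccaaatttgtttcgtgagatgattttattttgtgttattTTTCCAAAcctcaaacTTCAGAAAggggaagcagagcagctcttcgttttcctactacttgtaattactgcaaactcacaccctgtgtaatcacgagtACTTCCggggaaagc
Ms4a4a: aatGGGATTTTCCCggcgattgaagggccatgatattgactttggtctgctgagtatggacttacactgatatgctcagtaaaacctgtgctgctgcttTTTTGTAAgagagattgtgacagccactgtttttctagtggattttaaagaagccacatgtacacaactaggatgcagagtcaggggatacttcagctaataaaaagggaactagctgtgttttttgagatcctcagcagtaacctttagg
Ms4a6c: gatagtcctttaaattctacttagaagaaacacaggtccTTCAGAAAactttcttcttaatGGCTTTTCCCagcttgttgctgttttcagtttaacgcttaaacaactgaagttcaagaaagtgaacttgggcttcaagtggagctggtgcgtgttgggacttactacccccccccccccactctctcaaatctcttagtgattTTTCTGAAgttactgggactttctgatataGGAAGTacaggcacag
Ms4a4c: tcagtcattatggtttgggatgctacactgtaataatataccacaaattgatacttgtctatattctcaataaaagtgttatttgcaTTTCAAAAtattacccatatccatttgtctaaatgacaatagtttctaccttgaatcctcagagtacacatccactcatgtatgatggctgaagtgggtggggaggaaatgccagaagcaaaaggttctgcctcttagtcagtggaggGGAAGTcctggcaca

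The motifs were GGAAGT, the core bound by PU.1 and other ETS factors, its longer form GAGGAAGT, TTNNGNAA for C/EBP factors, the interferon response motif, TGANTCA for AP-1, CACGTG for E-box factors and the NF-κB motif. GGAAGT is contained in GAGGAAGT, and both strands were searched. PU.1 and C/EBP factors are the master regulators of myeloid genes. GGAAGT was found in 6 of 8 members, Ms4a7, Ms4a4c, Ms4a6c, Ms4a6b, Ms4a4d and Ms4a3, and in 23.8% of all 32851 windows. TTNNGNAA was found in 8 of 8 members and in 40.7% of all windows. The NF-κB motif was found in 3 members (Ms4a4a, Ms4a6c, Ms4a4d) and in 20.7% of all windows, and TGANTCA in 2 members (Ms4a8a and the downstream start of Ms4a7) and in 7.81%. GAGGAAGT, the interferon response motif and CACGTG were found in 0 members and in 3.20%, 3.44% and 7.15% of all windows. In Ms4a7, Ms4a4c and Ms4a6c a GGAAGT match lies within the last 20 bases before the start, at -15 to -10, -15 to -10 and -16 to -11, where -1 is the base before the start. A match between -20 and -5, a range set after these positions were seen, was found in 1.54% of all windows. The ratios of Ms4a7, Ms4a4c and Ms4a6c were 16.5, 1.57 and 2.47. Ms4a4a, with a ratio of 4.59, held no GGAAGT in its window. The part of this motif in the ratios was not tested. Before the RefSeq starts of Ms4a6c and Ms4a6b an identical run of 48 bases was found. It begins at -49 in Ms4a6c and at -118 in Ms4a6b and holds a GGAAGT match in each. In the GENCODE annotation 106 of the bases searched before the Ms4a6b start fall in exons. The annotated Ms4a6b gene starts upstream of that RefSeq start, so its matches lie inside the gene. Ms4a6c and Ms4a6b had ratios of 2.47 and 1.47.

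Genes linked to MS4A proteins, directly or through another gene, by function, structure or the human locus, were compared next. They are called partner genes below. Of 12 such genes 11 were kept, and of these 4 were up, 1 was down and 6 stayed within 2-fold, with a median log2 ratio of 0.29. The share up was near the 31.5% of all features kept, whose median was 0.53, so the count sets these genes apart in no way. Relative to the median of features from 1 to 5 RPKM, 0 were up and 3 down. These 3 were Tyrobp, Plcg2 and Clec7a, whose levels lie far above that range, so its median is not matched to them. Trem2, a lipid-sensing receptor of macrophages whose soluble form varies with the MS4A locus in humans, was listed at 0.91 and 2.79 RPKM, a ratio of 3.07 (interval 2.69 to 3.51). Its adaptor gene Tyrobp was high in both libraries, at 1936 and 1571 RPKM, and the kinase gene Syk stood at 200.5 and 315 RPKM. Plcg2, a phospholipase gene downstream of Syk, stood at 69.1 and 57.6 RPKM, and the Src family kinase gene Lyn at 160 and 181 RPKM. Clec7a, the gene of dectin-1, ran opposite to Ms4a4a, at 359 RPKM in PBS and 116 RPKM with exosomes (ratio 0.324). Fcer1g, the shared signaling chain of Fc receptors, was up, at 538 and 1489 RPKM (ratio 2.77). Tmem176a and Tmem176b, a neighbouring gene pair related in structure to the MS4A family, were up together, at 0.28 and 1.03 RPKM (ratio 3.68) and at 0.30 and 1.16 RPKM (ratio 3.87). Cdkn3, the phosphatase gene whose product is bound by MS4A3, stood at 0.27 and 0.33 RPKM, and its substrate gene Cdk2 at 7.07 and 7.45 RPKM.

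Marker genes of the cells that a bone marrow sort could hold were read beside the members. All 12 neutrophil markers were detected in both libraries, from 144 RPKM (Ltf) to 43059 RPKM (S100a9) in PBS and from 15.1 RPKM (Ltf) to 14382 RPKM (S100a8) with exosomes. Of these 10 were down and 1 was up, and their median log2 ratio was -1.85. Among all features kept 5.62% were down and 31.5% were up. Of those from 1 to 5 RPKM 50.2% were up, and of those from 10 to 50 RPKM 18.4% were up and 5.15% down. Every neutrophil marker lay above 50 RPKM in PBS, so neither range is matched to that list. Among all 35522 features 10254 were higher with exosomes and 5057 were lower. Macrophage markers were read beside Ms4a7. Of 12, 10 were higher with exosomes, their summed level was 137.5 RPKM in PBS and 487 RPKM with exosomes, and the 6 kept had a median log2 ratio of 2.71, with 5 up. Emr1 (F4/80), Apoe and Cd68 made up most of the sum, at 20.9, 28.6 and 83.9 RPKM in PBS and 152, 169 and 146 RPKM with exosomes. C1qc was listed at 0.27 and 3.79 RPKM, Mertk at 0.04 and 0.48 RPKM and Mrc1 at 0.04 and 0.38 RPKM. Cd163, a marker of resident macrophages, stayed at 0.01 and 0.00563 RPKM, and Vsig4 at 0.30 and 0.08 RPKM. No macrophage marker was listed at 0. Of 10 monocyte markers 8 were higher, their sums were 256 and 270 RPKM, and 4 of 8 kept were up, including Csf1r at 58.1 and 152.6 RPKM. Against the 31.5% up among all features kept, a count of 4 among 8 is no clear departure at the 2-fold limit. The median log2 ratio of the 8 kept was 1.10, against 0.53 for all features kept. Nr4a1 (4.89 and 63.8 RPKM), Klf4 (0.58 and 4.36 RPKM) and F13a1 (0.36 and 2.56 RPKM) were up at least 4-fold. Of all features kept 8.52% were. Of the monocyte markers kept, 3 stayed within 2-fold and 1, Ly6c2, was down. Ly6c2 stood at 184 and 37.1 RPKM and made up most of the sum in PBS. The part of monocytes or macrophages in the levels of the Ms4a members was not tested.

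Markers of the progenitor stage, at which Ms4a3 is used, did not all go the same way. Of 8, 6 were higher with exosomes, the sums were 22.1 and 23.4 RPKM, and 1 of 6 kept was up (Prtn3, 1.14 and 2.90 RPKM), with a median log2 ratio of 0.47. The highest were Cebpe in PBS, at 10.9 RPKM (5.44 RPKM with exosomes), and Mpo with exosomes, at 8.42 RPKM (5.48 RPKM in PBS). By comparison, 10254 of all 35522 features were higher with exosomes and 5057 were lower. Dendritic cell markers summed to 105 and 71.2 RPKM, T and NK cell markers to 58.7 and 8.76 RPKM, mast cell and basophil markers to 87.1 and 23.8 RPKM, eosinophil markers to 10.6 and 5.29 RPKM and epithelial markers to 0.61 and 0.214 RPKM. The highest were Cd74 (81.4 and 54.1 RPKM), Cd3d (56.4 and 7.02 RPKM), Hdc (84.6 and 21.1 RPKM) and Prg2 (5.32 and 2.93 RPKM), and among epithelial markers Krt18 in PBS (0.38 RPKM) and Cdh1 with exosomes (0.11 RPKM). Cd3d and Hdc made up most of the sums of their lists. Of 8 T and NK cell markers 4 were higher and 4 lower with exosomes, with Cd3e at 0.06 and 0.04 RPKM and Lck at 0.95 and 0.93 RPKM. Of 6 mast cell and basophil markers 1 was higher (Prss34, 0.59 and 1.08 RPKM). The other 5 were lower, with Mcpt8 at 1.01 and 0.86 RPKM. Of these 5 lists 3, 2, 4, 2 and 0 genes were kept, in the order above, so the epithelial list could give no call. Of the genes kept 0 were up, against 31.5% of all features kept. The NK cell gene Klrb1c was listed at 0.01 and 0.51 RPKM and was not kept. Ncr1, Krt8 and Krt19 were listed at 0 in PBS, and Krt8 was also listed at 0 with exosomes.

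**Figure D5:**
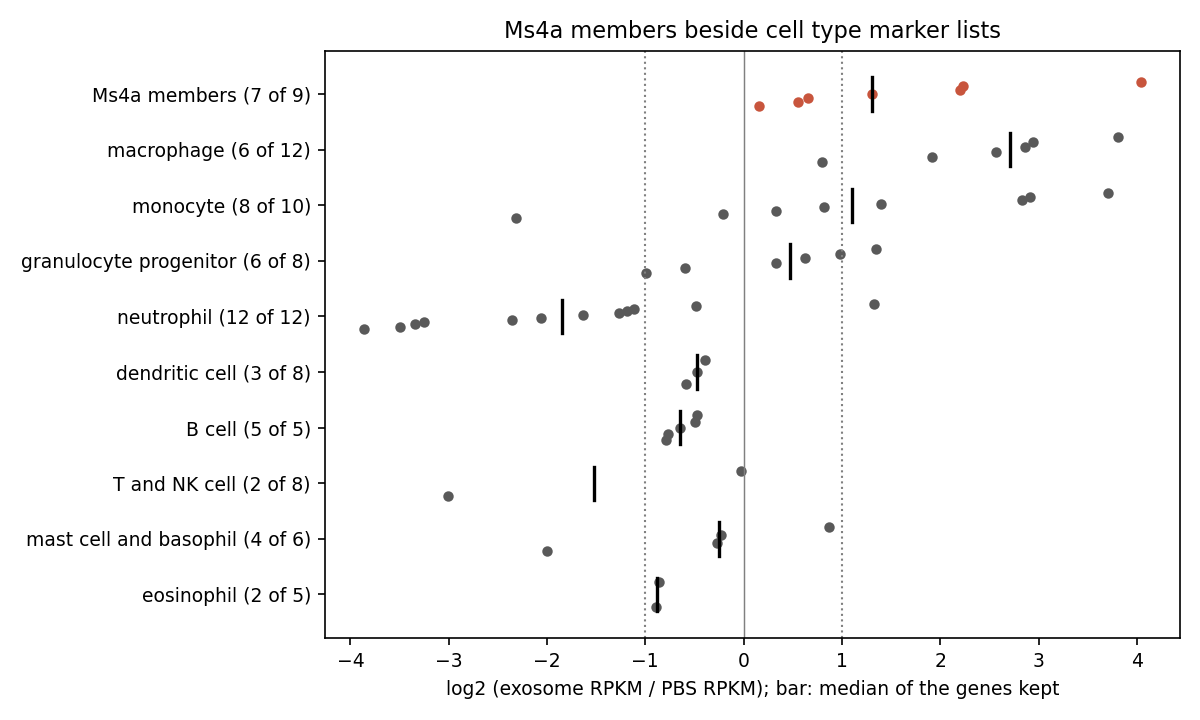
Log2 of exosome over PBS RPKM of the genes kept (numbers in brackets, of those listed) in the Ms4a members and in 9 cell type marker lists, with 1 point per gene, a bar at the median and dotted lines at 2-fold. The medians were 1.31 for the members, 2.71 for macrophage, 1.10 for monocyte, -0.65 for B cell and -1.85 for neutrophil markers.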

How the data were processed

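RNA of the sorted and cultured neutrophils was made into mRNA libraries (TruSeq) and sequenced, 1 library per treatment. Reads under a Phred score of 20 were trimmed and analysed in CLC Genomics Workbench by the authors, who deposited 1 RPKM value per feature and library. The submitters' processing notes name the build mm10. The annotation and the handling of reads that match several genes are not given in the sources used here. Values of 0.01 or more are rounded to 0.01.

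Ratios were formed without a pseudocount. RPKM values are no counts, so no count model was fitted. Many values under 0.01 stand for 1 read, and the commonest solution for the mapped reads (192 of 918 such features in PBS, 236 of 1064 with exosomes) gave the depths, using the longest transcript per symbol in GENCODE release M21. The authors' exon models may differ. Intervals are exact Clopper-Pearson (ratios) or Poisson (levels). Scripts ran in Python 3.11.15 with scipy 1.17.1 and Biopython 1.88 and were tested on simulated reads. Percentages of aligned bases come from global alignments.

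The members and gene lists were chosen with earlier results of these data known. Named were all members, other Ms4a rows of at least 0.05 RPKM in a library, partner genes, cluster genes of at least 0.25 RPKM in a library, the 3 features nearest to Ms4a7 (which had both the largest ratio and the highest mean) and of each marker list the highest marker in each library and those at 0. Further Ms4a rows, markers and examples were named after their values were seen. Alternatives were 3 scalings, 2 filters, a pseudocount and a 4-fold limit, with 2 scalings added after the data were seen. A planned comparison of protein sequences was not made, and coding sequences were aligned in its place. Of the annotated genes in and around the cluster, 1 was not matched to a row and is not analysed here. Of the planned marker genes, 2 are not reported here and were left out of their lists.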

Additional observations from a re-analysis of the deposited data

How the results depend on the processing

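Under all 9 alternatives Ms4a7 and Ms4a6d stayed up at the limit in use, and Ms4a4a did so in all but the filter of at least 1 RPKM in both libraries, which it did not pass. Ms4a6c was not called under median centring, subtraction of a trimmed mean log2 ratio, a pseudocount of 1, a 4-fold limit or centring on the 1 to 5 RPKM range. The number of members up was 3 or 4 and the number down was 0 throughout. Their median log2 ratio became 0.78 under median centring, 0.76 with the trimmed mean removed, 1.77 with at least 1 RPKM in both, 0.87 with a pseudocount of 1 and 0.31 under centring on the 1 to 5 RPKM range. The log2 ratio of the summed level, 2.17, became 1.65, 1.63 and 1.17 under the same 3 centrings, and 1.95 with S100a8 and S100a9 left out of the totals. Ms4a3, not called in any setting, had a log2 ratio of 0.15 that became -0.37, -0.39 and -0.85 under the 3 centrings and -0.07 without S100a8 and S100a9. The cause of these differences was not tested. The last of the centrings and the removal of S100a8 and S100a9 were chosen after seeing the data.

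Among the other Ms4a rows, 1 was up (Ms4a14) with at least 0.25 RPKM in either library and a pseudocount of 0.25, and 1 was down (Ms4a1) under each of the 3 centrings. None of these centrings is matched to the level of Ms4a1. Among partner genes, 1 was up with at least 1 RPKM in both and 1 with a pseudocount of 1. At the 4-fold limit 0 were up and 0 down. Under centring on the 1 to 5 RPKM range 0 were up and 3 down, all 3 with levels far above that range. For all features kept, median centring gave 16.8% up and 13.2% down. No paired analysis was possible because each group holds 1 library. With 2 libraries, the spread between cultures is unknown, and low members rest on few reads.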

Other observations

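Genes flanking the Ms4a cluster within 200 kb were read as well. Of 15 such genes found in the files 7 were kept, and 4 of these were up, with a median log2 ratio of 2.23. Among all features kept 31.5% were up, with a median log2 ratio of 0.53. All 4 genes called up have a mean RPKM from 1 to 5. Of the features in that range 50.2% were up, and 17.5% were up at least 4-fold. The 4 genes had ratios of 4.68 to 7.44. They were picked by these ratios, so their place among features of that range is no separate result. Of the other kept genes Tmem132a also lies in this range, and Slc15a3 and Stx3 lie outside it. Tmem109, a nuclear and endoplasmic membrane protein gene, was listed at 1.34 RPKM in PBS and 8.45 RPKM with exosomes. Prpf19, a splicing factor gene, was listed at 1.16 and 5.43 RPKM, Ccdc86 at 0.45 and 3.35 RPKM, and Mrpl16, a gene of the mitochondrial ribosome, at 0.52 and 3.10 RPKM. Slc15a3, a lysosomal peptide transporter gene, stood at 131 and 153 RPKM, Tmem132a at 4.09 and 4.17 RPKM and Stx3 at 0.52 and 0.63 RPKM. Cd6, a T cell gene, was listed at 0.43 and 0.04 RPKM and was not kept.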
